A study of Mus musculus with 4 samples.

Results

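The 10 genes described here are ligands, receptors, a modifying enzyme and nuclear effectors of the Notch pathway: Dll1, Dll3, Jag1, Notch1, Notch2, Notch3, Mfng, Hes1, Hes5 and Hes6. They were chosen by name, with earlier results of these data known. Each was read by the brightest probe set that the array annotation assigns to that gene alone. All 10 were among the 12740 genes tested. Notch signalling passes between touching cells: a Delta or Jagged ligand on one cell binds a Notch receptor on its neighbour, the receptor is cut, and its inner part joins the DNA-binding protein Rbpj and switches on Hes repressors. In the embryonic neural tube this keeps the receiving cell a dividing progenitor, while the cell that makes Delta ligands leaves the cycle and becomes a neuron. The Hes genes do not all act alike: Hes1 and Hes5 hold progenitors undifferentiated, whereas Hes6 accumulates in differentiating cells and counters Hes1.

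RNA came from GFP-sorted cells of mouse neural tubes at E10.5, dissected between forelimb and hindlimb level from embryos of mixed B6SJLF1 and ICR background. Cells of the Atoh1BAC-GFP line, called Atoh1-GFP below, carry GFP in an artificial chromosome of the Atoh1 locus and give rise to dorsal interneuron 1 (dI1). Cells of the dNeurog1-GFP line carry GFP under a Neurog1 enhancer active in the dorsal neural tube and give rise to dorsal interneuron 2 (dI2). There were 2 Affymetrix arrays for each line, labelled as biological replicates, so both groups are transgenic and no other population serves as a control. The labels speak of GFP-sorted cells without stating that the GFP-positive fraction was hybridised, which is assumed here. How many embryos went into each array is not stated in these sources.

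The arrays carried their labels' marker genes. Pairs of array values are in the order replicate 1, replicate 2. Atoh1, which specifies the dI1 fate, had 21412 and 19675 on the Atoh1-GFP against 1771 and 1861 on the dNeurog1-GFP arrays, and Neurog1, the dI2 factor, had 172 and 176 against 1388 and 2469. The replicate 1 arrays had been deposited at a trimmed mean of 250 and the replicate 2 arrays at 500, so all signals below were scaled to a trimmed mean of 500. After this scaling the median probe set still had a higher signal on the replicate 1 arrays (138 in Atoh1-GFP and 115 in dNeurog1-GFP) than on the replicate 2 arrays (76.0 and 75.4). Differences are therefore given within each replicate number as well as over both. They subtract dNeurog1-GFP from Atoh1-GFP on a log2(signal + 32) scale, so a positive value means higher in Atoh1-GFP cells.

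The study set the dI1 population against its dI2 neighbour, and the comparison here asks which Notch genes differ between them. Dll1, Dll3, Mfng and Hes6 had higher signals in Atoh1-GFP cells and Jag1, Notch1, Notch2, Notch3, Hes1 and Hes5 had lower ones. Each of the 10 differences had the same sign within both replicate numbers, a property shared by 67% of all genes tested. In 8 of the 10 genes the 2 arrays of each population did not overlap, 4 higher and 4 lower in Atoh1-GFP cells, against 34.7% of all genes (15.9% higher and 18.8% lower). The median difference over all 12740 genes was 0.01. In sorted bulk RNA, fewer cells of a state and less RNA per cell cannot be told apart.

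None of the 10 passed an adjusted p of 0.05 in limma's model without the replicate number, in which 28 genes, or 0.22% of those tested, passed. At an unadjusted p under 0.05 that model counted 3 of the 10 (Dll3, Mfng and Hes6) and 1094 genes, or 8.59%, in all. When the replicate number entered this model as a block, 6 of the 10 passed: Dll3, Mfng and Hes6 higher, and Jag1, Notch2 and Hes1 lower in Atoh1-GFP cells. That model called 829 genes, or 6.51% (2.78% higher and 3.73% lower). Nothing in the labels ties equal replicate numbers to a shared day or litter, and the block leaves 1 residual degree of freedom. Its calls lean on a variance estimate that follows signal level: without that trend it called 23 genes and 0 of the 10, with adjusted p from 0.081 (Dll3 and Hes6) to 0.34 (Hes5). With the block but no filter on low signals 361 genes passed and 3 of the 10, Dll3, Mfng and Hes6. Without a replicate block, leaving out the replicate 1 array of Atoh1-GFP gave 380 genes and 4 of the 10 (Dll3, Mfng, Hes1 and Hes6), and leaving out the replicate 2 array of dNeurog1-GFP gave 167 genes and 2 of the 10 (Dll3 and Hes6). Leaving out Atoh1-GFP replicate 2 gave 245 genes and leaving out dNeurog1-GFP replicate 1 gave 153, with 0 of the 10. These fits assume that the lone array varies like the other population.

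**Figure D1:**
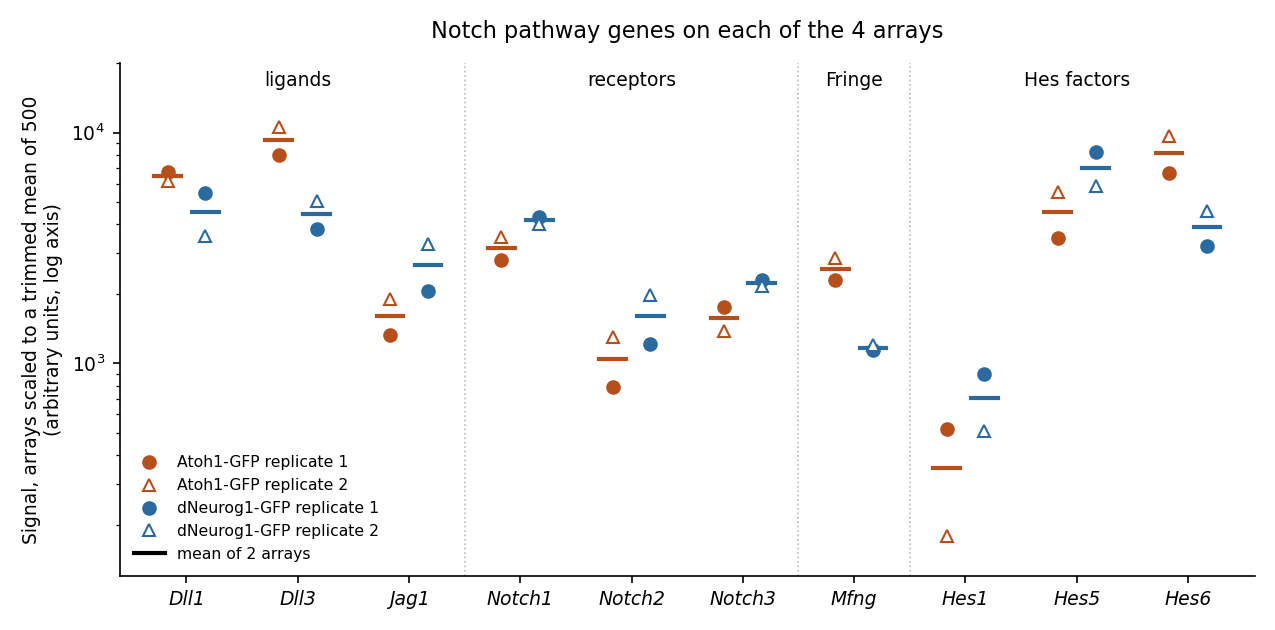
Signal of each of the 10 genes on the 4 arrays after scaling to a trimmed mean of 500 (log axis, arbitrary units); circles are replicate 1, triangles replicate 2, bars the mean of the 2 arrays. Dll3, Mfng and Hes6 lie higher on both Atoh1-GFP arrays, whereas Notch2 and Hes1 overlap between the populations, and levels of different genes cannot be compared because each probe set has its own response.

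The Delta ligands were on the Atoh1-GFP side. Dll3, a Delta family member that acts inside the cell that makes it rather than as a ligand for its neighbours, had signals of 8014 and 10542 on the Atoh1-GFP arrays against 3826 and 5040 on the dNeurog1-GFP arrays. Both Atoh1-GFP arrays were above both dNeurog1-GFP arrays, by 2.09-fold within each replicate number. The log2 difference was 1.06 (limma standard error 0.23 and adjusted p = 0.18 unblocked, 0.11 and adjusted p = 0.0077 blocked).

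Dll1, the main activating Delta ligand of newborn neurons, had 6777 and 6167 on the Atoh1-GFP against 5467 and 3567 on the dNeurog1-GFP arrays. The groups did not overlap, but the fold was uneven, 1.24 within replicate 1 and 1.73 within replicate 2. Its difference of 0.55 passed in neither model (limma adjusted p = 0.65 without and 0.091 with the block), and its 95% interval without the block ran from -0.05 to 1.14. Whether Dll1 and Dll3 differ from each other in their response was not tested.

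Jag1, a ligand of the Jagged (Serrate) type, went the other way. Its brightest probe set had 1321 and 1897 on the Atoh1-GFP against 2049 and 3278 on the dNeurog1-GFP arrays. Both dNeurog1-GFP arrays were above both Atoh1-GFP arrays, by 1.55-fold and 1.73-fold within replicates 1 and 2. The log2 difference was -0.70 (limma adjusted p = 0.62 without and 0.027 with the block). Of the other Jag1 probe sets, the brighter had a difference of -0.38 and the dimmer one of 0.18, the latter with signals of 240 and 66.6 against 142 and 88.1. That dim probe set was higher in Atoh1-GFP cells within replicate 1 (0.64) and lower within replicate 2 (-0.28). The brighter of the other Jag1 probe sets had 376 and 177 against 410 and 296, so its populations overlapped. Its differences were -0.12 within replicate 1 and -0.65 within replicate 2. The direction for Jag1 thus rests on the brighter probe sets, and the lack of overlap on the brightest alone.

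All 3 receptors had lower signals in Atoh1-GFP cells, by small amounts. Notch1, the receptor that dominates in neural progenitors, had 2798 and 3541 on the Atoh1-GFP against 4295 and 4036 on the dNeurog1-GFP arrays. The populations did not overlap, with dNeurog1-GFP higher 1.54-fold within replicate 1 and 1.14-fold within replicate 2. The log2 difference of -0.40 passed in neither model (limma adjusted p = 0.76 without and 0.16 with the block), and its 95% interval without the block was -0.92 to 0.12.

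Notch2, a receptor also made by progenitors, had 793 and 1298 on the Atoh1-GFP against 1214 and 1979 on the dNeurog1-GFP arrays. The populations overlapped, yet the ratio was 1.53 within replicate 1 and 1.52 within replicate 2. The log2 difference of -0.60 passed only with the block (limma adjusted p = 0.80 without and 0.045 with it). Notch3, a receptor of progenitors and of the cells that wrap blood vessels, had 1762 and 1374 against 2293 and 2172. The populations did not overlap, and the difference of -0.51 passed in neither model (limma adjusted p = 0.65 without and 0.076 with the block).

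Mfng, or Manic fringe, adds a sugar to Notch receptors and so alters which ligands they answer. Its signals were 2300 and 2849 on the Atoh1-GFP against 1140 and 1198 on the dNeurog1-GFP arrays. Both Atoh1-GFP arrays were above both dNeurog1-GFP arrays, by 2.02-fold within replicate 1 and 2.38-fold within replicate 2. Among the 10 genes this was the largest log2 difference toward Atoh1-GFP cells, 1.11 (limma standard error 0.23 and adjusted p = 0.16 unblocked, 0.13 and adjusted p = 0.0094 blocked). The other Fringe genes did not pass in either model. Lfng, or Lunatic fringe, had 681 and 665 against 909 and 700, a difference of -0.23, and Rfng, or Radical fringe, had 1060 and 1144 against 858 and 1117, a difference of 0.16.

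The 3 Hes genes were split. Hes6 had 6676 and 9651 on the Atoh1-GFP against 3242 and 4579 on the dNeurog1-GFP arrays, without overlap and 2.06-fold and 2.11-fold higher within replicates 1 and 2. The log2 difference was 1.05 (limma adjusted p = 0.25 without and 0.0077 with the block), and its other probe set gave 1.16.

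Hes1, the repressor induced by Notch in many tissues, had 521 and 179 on the Atoh1-GFP against 902 and 510 on the dNeurog1-GFP arrays. In Atoh1-GFP, the replicate 1 array lay just above the replicate 2 array of dNeurog1-GFP, so the populations overlapped. Within the replicate numbers dNeurog1-GFP was 1.73-fold and 2.85-fold higher. The difference of -1.06 was the largest toward dNeurog1-GFP cells among the 10 genes (limma adjusted p = 0.66 without and 0.040 with the block).

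Hes5, the Hes gene most tied to Notch activity in the neural tube, had 3491 and 5538 on the Atoh1-GFP against 8226 and 5854 on the dNeurog1-GFP arrays. The populations did not overlap, but nearly all of the difference lay in replicate 1, where dNeurog1-GFP was 2.36-fold higher, against 1.06-fold in replicate 2. Over both it was -0.65, which passed in neither model (limma adjusted p = 0.61 without and 0.21 with the block). The other Hes5 probe set had 1847 and 1817 against 3336 and 2072. It showed the same unevenness, with -0.84 within replicate 1 and -0.19 within replicate 2.

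**Figure D2:**
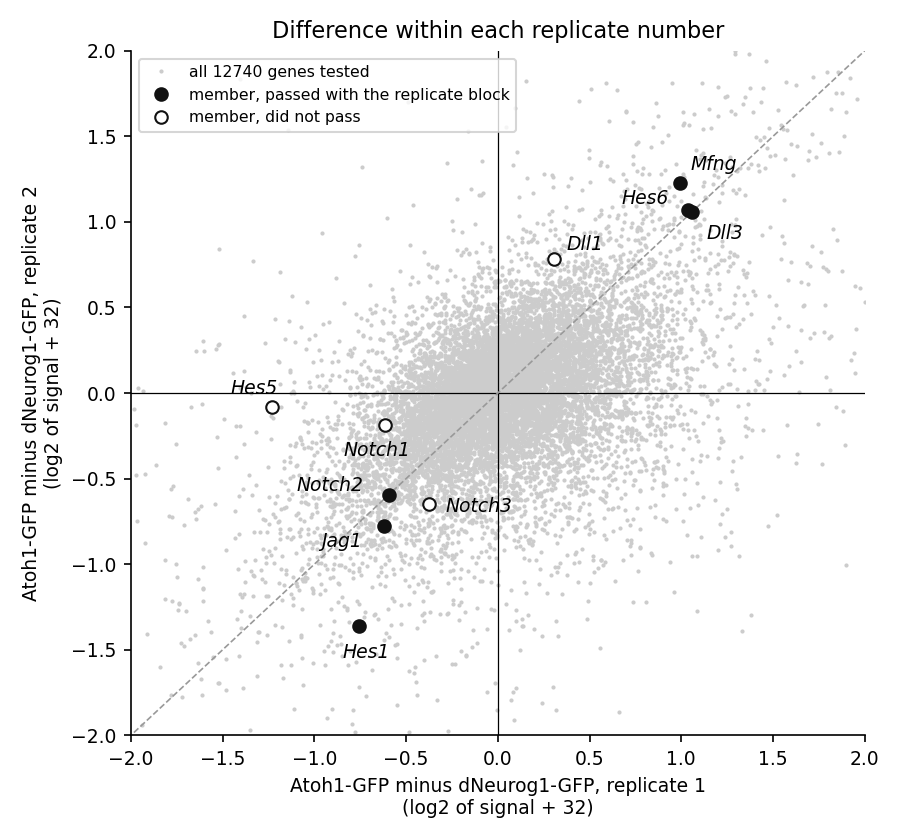
Log2 difference of each gene, Atoh1-GFP minus dNeurog1-GFP, within replicate 1 (horizontal) and within replicate 2 (vertical); grey points are all 12740 genes tested, of which 139 lie outside the axes, black points the 10 Notch genes (filled where they passed with the replicate block), and the dashed line marks equal differences. Dll3, Hes6 and Notch2 lie on the line, while Hes5 has -1.23 in replicate 1 and -0.08 in replicate 2.

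Probe sets other than the brightest gave a check for 5 further readings of the receptors and Hes genes. Notch1 (-0.31), Notch2 (-0.72), Notch3 (-0.56), Hes5 (-0.51) and Hes6 (1.16) kept the sign of the brightest probe set. The second Notch2 probe set was dim, with 89.0 and 8.38 on the Atoh1-GFP against 158 and 38.2 on the dNeurog1-GFP arrays. Probe sets of the same gene share the same RNA and are no further replicates. Dll1, Dll3, Mfng and Hes1 each had a single probe set.

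**Figure D3:**
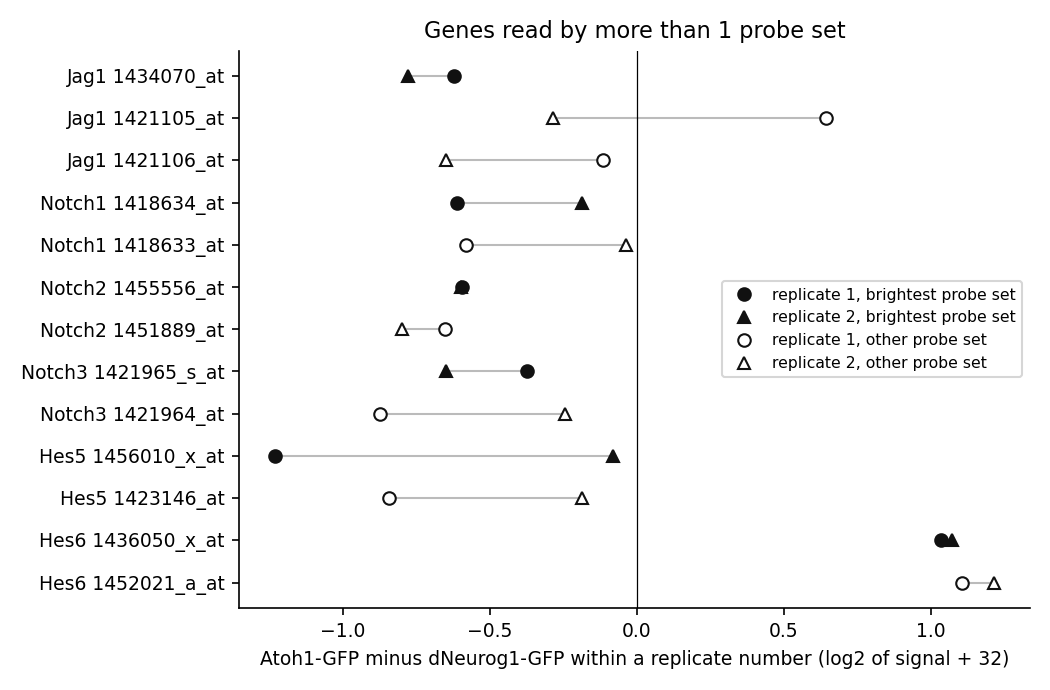
Log2 difference within replicate 1 (circles) and replicate 2 (triangles) for each probe set of the 6 genes with more than 1; filled symbols are the brightest probe set of the gene. Both Hes6 probe sets lie at 1.035 or above in both replicates, and the dimmest Jag1 probe set is the only one shown whose replicates have opposite signs.

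Upstream sequence is shown for the 3 higher genes that have an entry in RefSeq's promoter windows (build GRCm38.p6), with Jag1 as a gene that goes the other way. Windows were found for 8 of the 10 genes, and the 250 bases before the start were searched on both strands for CAGCTG, an E-box of the kind that basic helix-loop-helix factors such as Atoh1 bind, and for TGGGAA, the core of the Rbpj site. In capitals is each CAGCTG match, read 5′ to 3′ along the gene's strand.
Dll1, chr17:15376933-15377182, minus strand: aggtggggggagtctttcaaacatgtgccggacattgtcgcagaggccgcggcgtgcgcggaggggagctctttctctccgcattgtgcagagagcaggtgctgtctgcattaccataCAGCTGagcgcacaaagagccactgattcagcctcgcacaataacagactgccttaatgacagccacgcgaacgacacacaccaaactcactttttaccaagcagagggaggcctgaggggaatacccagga
Dll3, chr7:28301786-28302035, minus strand: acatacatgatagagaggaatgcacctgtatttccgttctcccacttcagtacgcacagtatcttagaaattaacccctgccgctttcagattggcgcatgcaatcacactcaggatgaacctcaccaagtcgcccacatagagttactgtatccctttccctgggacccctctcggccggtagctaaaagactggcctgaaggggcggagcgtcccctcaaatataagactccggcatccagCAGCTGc
Hes6, chr1:91414039-91414288, minus strand: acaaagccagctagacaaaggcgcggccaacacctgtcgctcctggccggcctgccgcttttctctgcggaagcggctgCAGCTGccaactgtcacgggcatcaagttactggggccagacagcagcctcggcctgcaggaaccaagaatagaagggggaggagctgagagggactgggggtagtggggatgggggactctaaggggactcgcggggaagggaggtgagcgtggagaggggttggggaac
Jag1, chr2:137116521-137116770, minus strand: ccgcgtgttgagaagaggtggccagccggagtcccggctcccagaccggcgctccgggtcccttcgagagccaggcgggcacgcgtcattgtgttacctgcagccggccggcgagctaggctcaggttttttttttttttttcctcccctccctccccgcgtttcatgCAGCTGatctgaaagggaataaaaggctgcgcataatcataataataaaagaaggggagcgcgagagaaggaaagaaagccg

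CAGCTG begins 132 bases before the start of Dll1, 7 before Dll3, 171 before Hes6 and 82 before Jag1. Dll1 and Hes6 have a second annotated start inside the gene, and of those windows only that of Hes6 holds a match. The single windows of Hes5 and Notch3 also belong to an annotated start that lies inside the gene's outer boundary. No match was found in the windows of Notch1, Notch2, Notch3 and Hes5. Of all 32851 windows of this length, 13.0% hold CAGCTG. The sequence is thus upstream of genes of both directions.

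TGGGAA was found upstream of 1 gene, Hes5, in 2 copies that lie 226 and 82 bases before that inner start, and 21.6% of all windows hold it. Both copies are shown with 12 bases on either side and the match in capitals, on the plus strand, the upstream copy reading as the reverse complement.
Hes5 upstream copy, chr4:154960685-154960714: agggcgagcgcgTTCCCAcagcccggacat
Hes5 copy next to the start, chr4:154960829-154960858: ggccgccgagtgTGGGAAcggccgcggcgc
A letter match describes the window and does not show that a factor binds there.

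Of 51 further Notch pathway genes listed, 46 had a probe set of their own and 40 of these passed the signal filter. None passed without the block, and with it 2 passed, both lower in Atoh1-GFP cells, against 6.51% of all genes. Their median difference was 0.11 (0.14 within replicate 1 and 0.04 within replicate 2).

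The pair that passed with the block were Nrarp and Dtx4. Nrarp, a small protein induced by Notch that dampens the pathway, had 3082 and 3818 on the Atoh1-GFP against 5860 and 5500 on the dNeurog1-GFP arrays. The populations did not overlap, and the difference was -0.72 (limma adjusted p = 0.31 without and 0.036 with the block). Dtx4, a Deltex ubiquitin ligase, had 3489 and 4470 against 7443 and 6244, also without overlap, and a difference of -0.78 (limma adjusted p = 0.30 without and 0.048 with the block). Of the other Deltex genes, Dtx2 had 0.42, Dtx3 0.13 and Dtx1 0.00.

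Among the remaining ligands and receptors 0 passed in either model. Dll4, the Delta ligand of vessels and of V2 interneurons, had dim signals of 118 and 95.1 on the Atoh1-GFP arrays against 112 and 45.2 on the dNeurog1-GFP arrays. Jag2 had a difference of -0.23, and the ligand-like membrane proteins Dlk1, Dlk2 and Dner had 0.19, 0.54 and 0.34. Dlk1 and Dner had opposite signs within the replicate numbers (1.05 and -0.67 for Dlk1, 0.83 and -0.15 for Dner). Notch4, the endothelial receptor, had 659 and 970 against 595 and 823, a difference of 0.18.

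The Hey genes, relatives of Hes that also answer to Notch, did not pass either. Hey1 had 760 and 592 on the Atoh1-GFP against 588 and 571 on the dNeurog1-GFP arrays. Hey2 had 124 and 41.9 against 137 and 144, and Heyl 223 and 110 against 239 and 212, differences of -0.69 and -0.43. Hes2, Hes3 and Hes7 were below the signal filter, with signals from 3.62 to 95.1 on the 4 arrays.

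Of 8 measured genes of receptor cleavage 0 passed with the block. They include the proteases Adam10 (-0.06) and Adam17 (-0.41) and the gamma-secretase subunits Psen2 (0.52), Ncstn (0.22), Psenen (-0.04) and Aph1a (0.08). Only Psen2 did not overlap between the populations, with 289 and 234 against 166 and 177. Rbpj, which takes the cut receptor to DNA, had 4433 and 5059 against 3197 and 3679, a difference of 0.46 (limma adjusted p = 0.64 without and 0.068 with the block).

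**Figure D4:**
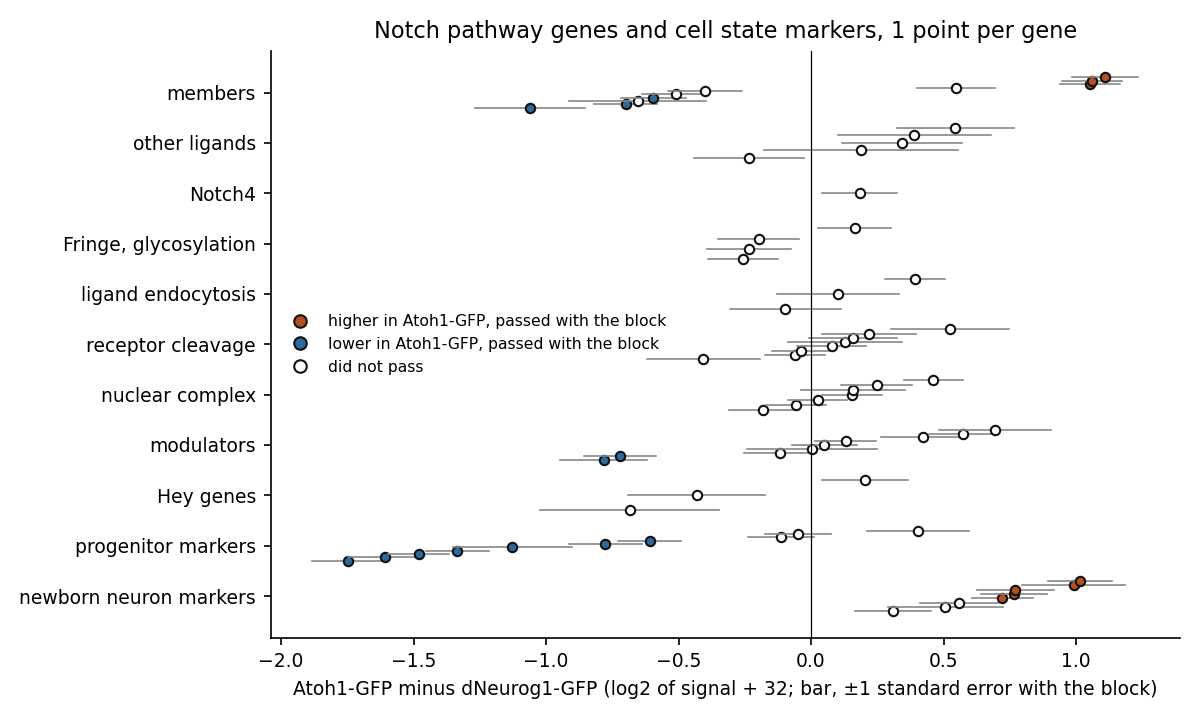
Log2 difference of every measured Notch pathway gene by role, with progenitor and newborn neuron markers below (1 point per gene, bars ±1 standard error in the model with the block, filled where that model passed the threshold). The 10 members reach from -1.06 to 1.11, whereas the receptor cleavage genes lie between -0.41 and 0.52.

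Cell state markers differed as well. Of 10 neural progenitor markers, 7 passed with the block, each lower in Atoh1-GFP cells, against 3.73% of all genes, and 0 passed without it. Sox1, a progenitor transcription factor, had a difference of -1.75 and Sox3 one of -1.33, while Sox2 had -0.11, and the list median was -0.95. Nes went the other way without passing, with 0.40 over both (0.78 within replicate 1 and 0.02 within replicate 2). Of 8 newborn neuron markers, 5 passed with the block, each higher in Atoh1-GFP cells, against 2.78% of all genes, and 0 passed without it. Tubb3, a neuronal tubulin, had 1.01, Dcx 0.99 and Elavl3 0.77, and the list median was 0.74. The summed progenitor signal was 41605 and 30498 on the Atoh1-GFP against 57715 and 41786 on the dNeurog1-GFP arrays, and the summed neuron signal was 56492 and 57102 against 30506 and 39154. The neuron sums did not overlap between the populations. The progenitor sums nearly met, at 41605 for Atoh1-GFP replicate 1 and 41786 for dNeurog1-GFP replicate 2. Such sums are carried mostly by the brightest probe sets. The part of the progenitor and neuron share in the Notch differences was not tested.

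Markers of other cells were uneven between arrays. Endothelial markers, 7 in number, matter here because vessels also make Notch ligands and receptors. Their summed signal was 2028 and 990 on the Atoh1-GFP against 960 and 852 on the dNeurog1-GFP arrays. With the block 0 of 7 passed, against 6.51% of all genes. Yet every endothelial marker leaned toward Atoh1-GFP cells over both replicates, by 0.11 to 1.07, and 5 of the 7 did so within each replicate number. Tek, Emcn and Esam were higher without overlap, 3 of 7 against 15.9% of all genes, and the other 4 overlapped. This lean was stronger in replicate 1 (median 1.05) than in replicate 2 (0.33). Ventral neural tube markers summed to 604 and 521 against 622 and 2200, so the replicate 2 array of dNeurog1-GFP stood apart. Of the 6 that were tested 1 passed with the block, against 6.51% of all genes. It was the motor neuron progenitor factor Olig2, lower in Atoh1-GFP cells. Its signals were 3.82 and 7.44 against 73.6 and 443. The difference was -2.57 (-1.56 within replicate 1 and -3.59 within replicate 2, limma adjusted p = 0.37 without and 0.038 with the block). Of the 6, 3 were lower and 2 higher in Atoh1-GFP cells without overlap, against 18.8% and 15.9% of all genes. The 3 lower ones were Olig2, Mnx1 (-2.19) and Nkx6-1 (-1.47). Mnx1 had 85.1 and 43.6 against 164 and 910, and Nkx6-1 had 82.2 and 66.2 against 152 and 433. The 2 higher ones were Shh and Foxa2, each with 0.69. Foxa2 was dim, with 123 and 56.2 against 28.3 and 55.7, so within replicate 2 its populations barely differed (0.01, against 1.36 within replicate 1). Mesenchyme markers summed to 4468 and 3475 against 1797 and 5814. Blood markers summed to 24053 and 25705 against 6584 and 18993. The 2 neural crest and sensory markers read here, of 5 listed, summed to 1775 and 2502 against 1423 and 2220. Most of that sum was Pou4f1, with 1557 and 2386 against 1281 and 2119. The other marker, Sox10, was dim, with its highest signal of 218 on Atoh1-GFP replicate 1. Which cells made the Pou4f1 RNA was not tested, so the sum does not measure neural crest cells. No marker was at 0, detection calls were not used here, and the part of these cells in the Notch differences was not tested.

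For Dll1, Notch1 and Hes5, the genes with the most similar values over the 4 arrays were found by the distance between log2 values centred on each gene's mean. Nearest to Dll1 were Iqsec3 (distance 0.094), Pxmp4 (0.10) and Gata1 (0.10). Nearest to Notch1 were Dhx35 (0.026), Atpaf2 (0.046) and Mastl (0.049), and nearest to Hes5 were Dtx3l (0.18), Timeless (0.19) and Pih1d2 (0.19). With 4 arrays and 12730 genes searched, such neighbours describe these arrays only.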

How the data were processed

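The authors deposited 1 MAS5 signal intensity per probe set and array, on a linear scale, per the submitters' processing notes and the values. Its version is not stated there. The deposited intensities were rescaled here to a 2% trimmed mean of 500 per array. Of 45101 probe sets, 64 controls were left out, and 34945 had 1 gene symbol, 932 several and 9160 none. Probe sets under the 40th percentile of mean signal (63.5) were left out. A gene was read by its brightest probe set with 1 symbol.

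Differences on log2(signal + 32), which understates the change of dim genes, were tested with limma 3.58.1 in R 4.3.3 (lmFit and eBayes with trend, Benjamini-Hochberg over 12740 genes). Without the block, p-values rest on the spread between 2 arrays a group, and with it on the disagreement of the 2 within-replicate differences. In both, eBayes draws that variance toward the usual one of genes of like signal. Its prior had 4.92 degrees of freedom against 2 residual ones without the block, and 5.11 against 1 with it. The number of arrays limits the precision. An exact permutation test of 2 against 2 cannot go below p = 0.333.

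The members, gene lists and tests were chosen with earlier results of these data known. Named were all members, all other ligands, receptors, Fringe and Hes or Hey genes, pathway genes that passed, and up to 4 genes a marker list. Further genes of the pathway and marker lists were named, and alternatives joining another choice with the block were added, after the data were seen.

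Both models were tested on simulated data, 20 runs of 12740 genes with 100 genes changed by 1 and 100 by 2 log2 units. With the real shift between replicate numbers the block recovered 51.6 and 95.4 of 100, with 9.82% false calls, and the model without it recovered 0. Without such a shift the block recovered 1.45 and 23.1, with 17.5% false calls, and the model without it 0.75 and 39, with 5.58%. The false calls with the block exceeded the share that an adjusted p of 0.05 allows. In the runs without a shift those of the model without the block did so too, by less. On the real arrays the model without the block called 28 genes, so the simulation with the shift does not match the data there. A shift shared by equal replicate numbers is what the block removes, so these runs cannot show which model suits the real arrays.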

Additional observations from a re-analysis of the deposited data

How the results depend on the processing

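Each of the 10 members kept its direction in the 21 settings with a limma fit, but many of these could not change it. The block, the signal filter and the variance trend left each member's difference as it was. Where the populations do not overlap, leaving out a single array cannot change the sign either. The dimmest Jag1 probe set, read without a test, had 0.18 against -0.70. The widest ranges came from leaving out single arrays: 0.24 to 0.85 for Dll1, 0.86 to 1.26 for Dll3, 0.96 to 1.26 for Mfng and 0.79 to 1.32 for Hes6, and -1.03 to -0.37 for Jag1, -0.57 to -0.23 for Notch1, -0.94 to -0.25 for Notch2, -0.69 to -0.34 for Notch3, -1.76 to -0.36 for Hes1 and -0.98 to -0.32 for Hes5. Without Atoh1-GFP replicate 1, Jag1 had -0.44, Notch1 -0.23, Notch2 -0.25, Hes1 -1.76 and Hes5 -0.32. Without Atoh1-GFP replicate 2, Notch2 had -0.94, Notch3 -0.34, Hes1 -0.36 and Hes5 -0.98. Without dNeurog1-GFP replicate 1, Dll1 had 0.85, Notch2 -0.94, Hes1 -0.67 and Hes5 -0.41, and without dNeurog1-GFP replicate 2, Dll1 had 0.24, Jag1 -0.37 and Notch2 -0.25. Over all genes the deviations from the group means of same-numbered arrays correlated at 0.664. Both replicate 1 arrays also kept a higher median after scaling, and such a shared shift gives a correlation too. The value therefore cannot tell whether replicate numbers share a day or litter. With the replicate block 829 genes were called (354 higher and 475 lower in Atoh1-GFP) in place of 28 (16 and 12), 6 members in place of 0, and 2 other pathway genes in place of 0. On values as deposited with the replicate block the counts were 1169 (503 and 666), 7 members and 5 other pathway genes, and without the block 13 genes, 1 of them higher. In models without the block, 75th percentile scaling gave 18 genes (7 higher), no filter on low signals 14 (7 and 7), a 60th percentile filter 18 (9 higher), the median of a gene's probe sets 13 (7 and 6), and no variance trend 0, with members at 0 throughout. At an unadjusted p under 0.05 the model with the trend counted 1094.

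With the block joined to another choice, an alternative chosen after seeing the data, 75th percentile scaling gave 1095 genes (437 and 658), 7 members and 3 other pathway genes, and quantile normalization 1716 (727 and 989), 10 and 5. No filter gave 361 (156 and 205) and 3 members, and a pseudocount of 16 gave 898 (383 and 515), 6 and 2, and one of 64 gave 860 (365 and 495), 6 and 2. No variance trend with the block gave 23 genes, 10 higher, and 0 members. Leaving out single arrays gave 153 to 380 genes, 70 to 200 higher and 50 to 180 lower, with 0 to 4 members and 0 other pathway genes. With the block this leaves no residual degrees of freedom and was not run. The median of the other pathway genes was 0.038 within replicate 2, and -0.047 to 0.17 over single arrays left out. The causes were not tested.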
